A study of Mus musculus with 21 samples.

Results

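Described here are 10 mouse genes for complement receptors and regulators, C3ar1, C5ar1, C5ar2, Itgam, Itgb2, Serping1, Cd55, Cd59a, Cr1l and Csmd1, chosen by name for what their proteins do. They were found by gene symbol and Ensembl ID among the 55401 genes of the count table, of which 37538 had a count in any mouse, and 10 of the 10 members had counts. The series measured RNA in pulverized forebrain of 21 mice by sequencing stranded poly(A) libraries on an Illumina NovaSeq instrument. It asks how human APOE2, APOE3 and APOE4 bear on the brain of mice with tau pathology. The parental groups E2H, E3H and E4H had 3 mice each, taken at 9 to 10 months, which carry human APOE2, APOE3 or APOE4 on both chromosomes in place of mouse Apoe (C57BL6 background). Each of PS/E2H, PS/E3H and PS/E4H had 4 mice, also homozygous for the human APOE allele, made by crossing those lines to PS19 mice (B6/C3H background) and crossing the offspring back to the APOE line. PS19 mice are heterozygous for a transgene that expresses human tau with the P301S mutation from the mouse prion promoter.

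PS19 mice were taken when their hindlimbs were paralyzed, and the age of each at death is not given. When PS19 mice are set against a parental line, the transgene, paralysis, age and background strain therefore cannot be told apart. The total count per mouse ran from 59265459 to 75932183 with a median of 63751715. By group the totals were 61093230 to 75533642 in E2H, 60394625 to 75932183 in E3H and 66983058 to 74756427 in E4H. They were 59265459 to 70384215 in PS/E2H, 61065315 to 72693566 in PS/E3H and 60883889 to 63751715 in PS/E4H.

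Sex is not given mouse by mouse. Xist, made from the inactive X chromosome, had more counts than the Y-linked gene Ddx3y in 17 of the 21 mice. The pattern was the opposite in E4H replicate 3 (Xist 189 counts, Ddx3y 4246), PS/E2H replicate 2 (169 and 2517), PS/E4H replicate 1 (164 and 3692) and PS/E4H replicate 4 (168 and 4197). The study's methods describe male mice with 1 female in E4H, 1 in PS/E2H and 2 in PS/E4H, the reverse of this pattern with the same number per group. Results of the members that passed in edgeR and include any of those 4 mice are therefore also given without them, as are some others, an alternative chosen after seeing the data.

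Complement is a chain of plasma and tissue proteins that mark targets and release small fragments, the anaphylatoxins, as C3 and C5 are split. C3ar1 and C5ar1 are the G protein-coupled receptors for the fragments C3a and C5a, and C5ar2 binds C5a without coupling to G proteins. Itgam (CD11b) and Itgb2 (CD18) together form complement receptor 3, which binds iC3b on marked targets and in brain is carried mostly by microglia. Serping1 blocks the starting proteases C1r and C1s, Cd55 and Cr1l (Crry) limit the C3 convertases, Cd59a blocks the membrane attack complex, and Csmd1 is a large membrane protein of neurons that limits complement deposition.

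On the FPKM scale, which is per length and can be compared between genes, Cd59a had the highest mean level, 9.18 ± 1.77 (SD, n = 21), and 27.9% of the members' summed FPKM. Serping1 followed at 6.60 ± 3.23, Itgam at 5.76 ± 2.20 and Itgb2 at 4.97 ± 2.73. C3ar1 had 1.69 ± 1.10, Cr1l 1.66 ± 0.210, Csmd1 1.57 ± 0.405 and Cd55 1.04 ± 0.196. The C5a receptors were lowest, C5ar1 at 0.293 ± 0.229 and C5ar2 at 0.0829 ± 0.0862. This order pools parental and PS19 mice, and it differed within groups. In parental mice Itgam (mean 4.07) lay above Serping1 (3.88), and C3ar1 (0.638) lay below Csmd1 (1.85), Cr1l (1.54) and Cd55 (1.07). In PS/E4H Serping1 (8.66) lay above Cd59a (8.59), while over the PS19 mice Cd59a (9.36) was above Serping1 (8.64). Variation over the 21 mice was smallest for Cr1l, with a coefficient of variation of 11.8% of the CPM (counts scaled to library size by TMM), and largest for C5ar2, at 102%. The members' summed FPKM was 22.6 to 26.7 in the 9 parental mice and 27.0 to 51 in the 12 PS19 mice, so the ranges did not overlap.

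**Figure D1:**
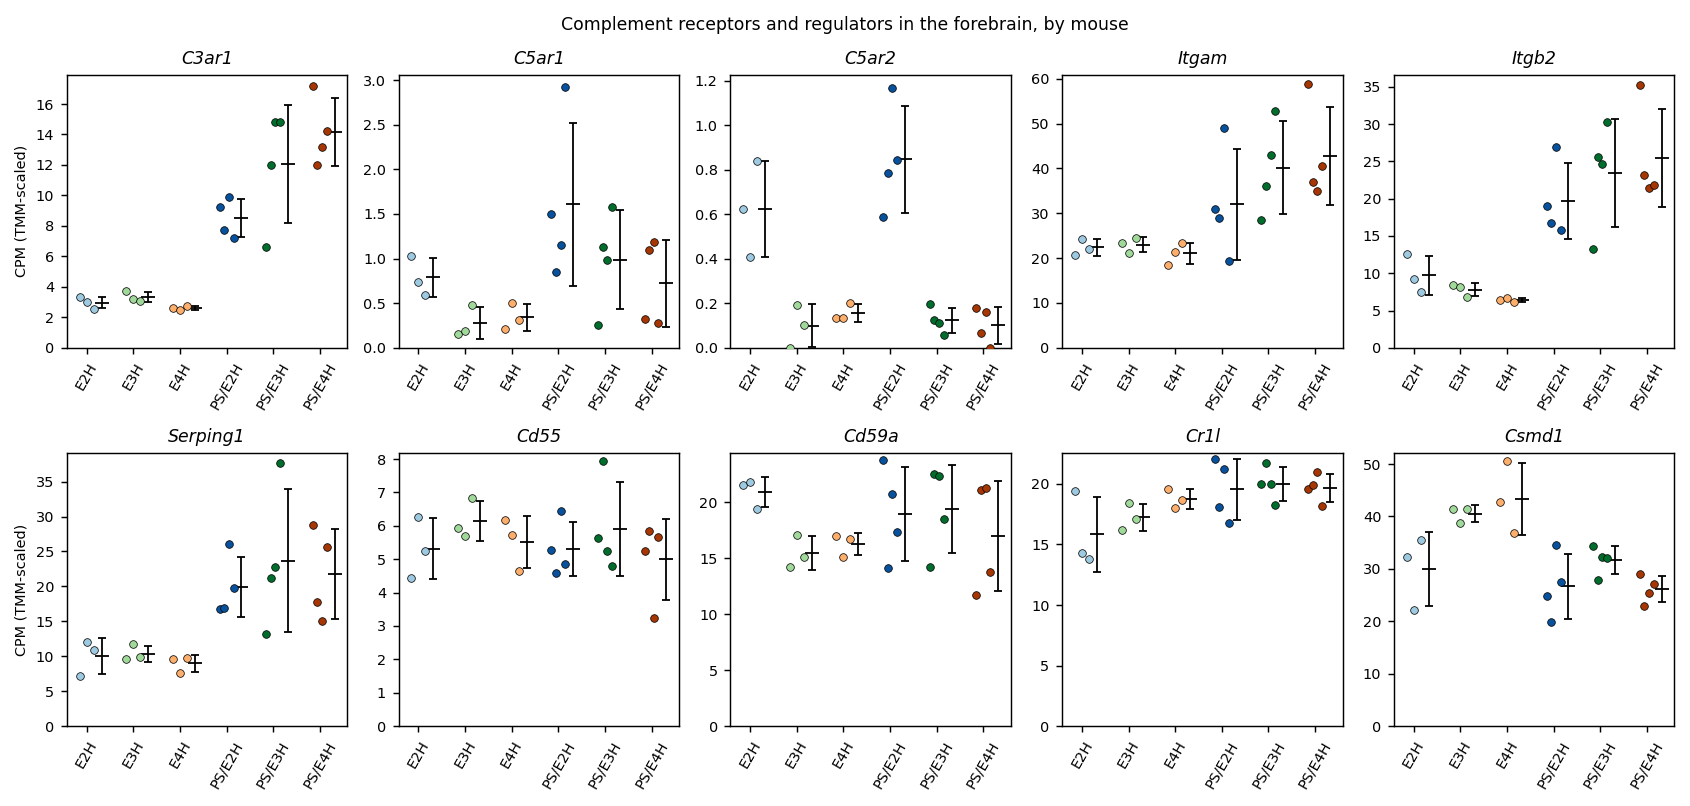
CPM of each of the 10 members in each mouse by group, on an axis from 0, with the group mean and SD beside the points. C3ar1 was 2.48 to 3.74 CPM in parental mice and 6.60 to 17.2 in PS19 mice, while C5ar2 was highest in the E2H and PS/E2H mice.

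The receptor for C3a, C3ar1 (ENSMUSG00000040552, GRCm38 chr6:122847138-122856161, minus strand), had 3.32, 3 and 2.57 CPM in the E2H mice, 3.74, 3.20 and 3.10 in E3H and 2.62, 2.48 and 2.72 in E4H. In PS/E2H it had 9.21, 7.76, 9.92 and 7.18 CPM, in PS/E3H 6.60, 12, 14.8 and 14.8, and in PS/E4H 17.2, 12, 13.2 and 14.2. Every PS19 mouse lay above every parental mouse, and the highest single mouse was in PS/E4H. The group order from low to high was E4H, E2H, E3H, PS/E2H, PS/E3H and PS/E4H, where neighbours overlap except E3H and PS/E2H. C3ar1 rose in PS/E2H over E2H by 1.52 log2 (SE 0.18, 95% interval 1.12 to 1.92, 2.86-fold, adjusted p = 0.00645, over the alternatives up to 0.114, edgeR). It rose in PS/E3H by 1.83 log2 (SE 0.26, 1.27 to 2.40, 3.57-fold, adjusted p = 0.00563, over the alternatives up to 0.108) and in PS/E4H by 2.44 log2 (SE 0.15, 2.10 to 2.78, 5.41-fold, adjusted p = 4.37e-05). Averaged over the 3 APOE lines in 1 fit of the 21 mice, the difference was 1.94 log2 (SE 0.13, 1.67 to 2.20, 3.83-fold, adjusted p = 2.44e-09), with 12 of 12 PS19 mice above every mouse of their parental line. Leaving out the 4 mice whose Ddx3y exceeded Xist, it was 1.90 log2 averaged, 1.56 in PS/E2H (adjusted p = 0.0154) and 2.30 in PS/E4H. The genes whose log2 CPM followed that of C3ar1 most closely over n = 21 mice were Cd84 (r = 0.987), C4b (r = 0.982) and Ly9 (r = 0.979). With group means taken out, Cd84 (r = 0.894) and Cyth4 (r = 0.887) were among the closest. For each member such genes are the highest by rank among 22863 genes tested. High values of r arise from that choice alone, and none was tested.

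The receptor for C5a, C5ar1 (ENSMUSG00000049130, chr7:16246743-16259540, minus strand), had few counts: 78, 42 and 43 in E2H, 11, 12 and 37 in E3H and 14, 38 and 23 in E4H. The counts were 104, 50, 71 and 173 in PS/E2H, 18, 71, 62 and 111 in PS/E3H and 20, 66, 73 and 18 in PS/E4H. All neighbouring groups overlap in the order E3H, E4H, PS/E4H, E2H, PS/E3H and PS/E2H, and some mice of PS/E3H and PS/E4H lay as low as parental mice. The PS/E4H mice at 20 and 18 counts, and the lowest of PS/E2H at 50, were mice whose Ddx3y exceeded Xist. The PS/E3H mouse at 18 was not, and the E4H mouse with that pattern, at 23, lay between the others of its group. In edgeR C5ar1 did not pass in a single PS19 group against its line, with differences of 1.01 log2 (SE 0.44, adjusted p = 0.440) for PS/E2H, 1.82 (SE 0.63, adjusted p = 0.123) for PS/E3H and 1.06 (SE 0.61, adjusted p = 0.279) for PS/E4H. By DESeq2 it passed in PS/E3H (1.83 log2, adjusted p = 0.0322, over the alternatives up to 0.325). Averaged over the lines it rose by 1.31 log2 (SE 0.36, 95% interval 0.57 to 2.05, 2.48-fold, adjusted p = 0.0111, over the alternatives 0.00185 to 0.0641), with 8 of 12 PS19 mice above every mouse of their line. It was 1.57 log2 (adjusted p = 0.00557) without the 4 mice whose Ddx3y exceeded Xist, and 1.65 log2 (adjusted p = 0.109) in PS/E4H. Its closest genes were Cyp2d22 (r = 0.811), Heph (r = 0.809) and Elmod3 (r = 0.797), and with group means taken out Cyp2d22 (r = 0.821), Gm49519 (r = 0.808) and Atp2c2 (r = 0.780), n = 21.

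C5ar2, the other C5a receptor (ENSMUSG00000074361, chr7:16234585-16244154, minus strand), had 47, 23 and 61 counts in E2H, 0, 12 and 8 in E3H and 9, 10 and 15 in E4H. It had 41, 46, 72 and 50 counts in PS/E2H, 14, 8, 7 and 4 in PS/E3H and 11, 4, 10 and 0 in PS/E4H. The 7 APOE2 mice, at 23 to 72 counts, lay above the 14 APOE3 and APOE4 mice, at 0 to 15, whichever their tau genotype. In CPM the group means were 0.623 ± 0.217 in E2H and 0.847 ± 0.241 in PS/E2H, against 0.0986 to 0.156 in the remaining 4 groups. The tau difference averaged over the lines was 0.05 log2 (SE 0.47, 95% interval -0.93 to 1.04, adjusted p = 0.960), an interval that leaves room for a change of about 2-fold either way. PS/E2H against E2H gave 0.43 log2 (adjusted p = 0.789) and PS/E4H against E4H -0.62 (adjusted p = 0.705). C5ar2 was not tested in PS/E3H against E3H, in E4H against E3H or in PS/E4H against PS/E3H, because its counts in those mice did not pass the filter on low counts. Its closest genes were Zfp772 (r = 0.876), Gm42372 (r = 0.841) and Lgals4 (r = 0.804), and with group means taken out Mfsd6 (r = 0.811), Tm4sf5 (r = 0.797) and Nmur2 (r = 0.787), n = 21.

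Of complement receptor 3, the alpha subunit gene Itgam (ENSMUSG00000030786, chr7:128062640-128118491, plus strand) had 20.7, 24.3 and 22.1 CPM in E2H, 23.4, 21.1 and 24.5 in E3H and 18.5, 21.3 and 23.3 in E4H. It had 31.0, 28.9, 48.9 and 19.3 CPM in PS/E2H, 28.6, 36.0, 43.0 and 52.9 in PS/E3H and 58.9, 37.0, 35.0 and 40.5 in PS/E4H. The parental mice lay close together, the PS19 mice spread widely, and PS/E2H replicate 4 fell within the parental range, so that neighbours overlap throughout the order E4H, E2H, E3H, PS/E2H, PS/E3H, PS/E4H. Itgam rose in PS/E3H by 0.79 log2 (SE 0.17, 0.41 to 1.17, 1.73-fold, adjusted p = 0.0285, over the alternatives up to 0.182) and in PS/E4H by 1.02 log2 (SE 0.17, 0.64 to 1.40, 2.03-fold, adjusted p = 0.00438). In PS/E2H the difference of 0.51 log2 (SE 0.25, -0.04 to 1.07) did not pass (adjusted p = 0.515). Averaged over the lines it rose by 0.78 log2 (SE 0.14, 0.50 to 1.07, 1.72-fold, adjusted p = 0.000301), with 11 of 12 PS19 mice above every mouse of their line. Without the 4 mice whose Ddx3y exceeded Xist the averaged value was 0.74 log2 (adjusted p = 0.00265), and in PS/E4H it was 0.85 log2 or 1.80-fold (adjusted p = 0.0132), under the 2-fold limit. The annotated gene Gm49368 overlaps Itgam and shares 66.3% of its 50-base exon windows (3402 of 5128), with 0 to 73 counts of its own, so how reads were divided between these genes is uncertain. The closest genes to Itgam were Pdpn (r = 0.961), Ggta1 (r = 0.958) and Chil1 (r = 0.957), and with group means taken out Ggta1 (r = 0.939), Tnfaip2 (r = 0.937) and Chil1 (r = 0.918), n = 21.

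The beta subunit gene Itgb2 (ENSMUSG00000000290, chr10:77530252-77565708, plus strand) had 12.6, 9.19 and 7.43 CPM in E2H, 8.48, 8.21 and 6.76 in E3H and 6.40, 6.64 and 6.09 in E4H. It had 19.0, 16.8, 27.0 and 15.8 CPM in PS/E2H, 13.2, 25.6, 24.7 and 30.3 in PS/E3H and 35.2, 23.2, 21.4 and 21.8 in PS/E4H. The PS19 mice all lay above the parental mice, the 3 E4H mice lay below the E2H and E3H mice, and neighbours overlap elsewhere in the order E4H, E3H, E2H, PS/E2H, PS/E3H, PS/E4H. Itgb2 rose in PS/E3H by 1.57 log2 (SE 0.24, 1.05 to 2.10, 2.98-fold, adjusted p = 0.00792, over the alternatives up to 0.108) and in PS/E4H by 1.99 log2 (SE 0.18, 1.59 to 2.39, 3.97-fold, adjusted p = 0.000169). In PS/E2H the difference was 1 log2 (SE 0.23, 2-fold) and did not pass in the edgeR fit of those 7 mice (adjusted p = 0.0977, over the alternatives 0.000425 to 0.332). It passed in DESeq2 (adjusted p = 0.000425), in the edgeR fit of all 21 mice (adjusted p = 0.0317) and with a term for the Xist pattern (adjusted p = 0.0472), and without the mouse whose Ddx3y exceeded Xist it was 1.07 log2 (adjusted p = 0.104). Averaged over the lines it rose by 1.53 log2 (SE 0.14, 1.23 to 1.83, 2.89-fold, adjusted p = 2.21e-07) with 12 of 12 PS19 mice above their line. Without the 4 mice whose Ddx3y exceeded Xist this was 1.48 log2 (adjusted p = 1.08e-05), and 1.77 log2 (adjusted p = 0.00239) in PS/E4H. Over n = 21 mice the log2 CPM of Itgb2 followed C3ar1 with r = 0.96 (0.88 with group means taken out) and Itgam with r = 0.87 (0.72). Its closest genes were Cd84 (r = 0.974), C4b (r = 0.968) and Ctsd (r = 0.967), and with group means taken out A2m (r = 0.913), Ncf4 (r = 0.900) and Tgfbr2 (r = 0.894).

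Promoters are shown for C3ar1 and Itgam, which both rose in the tau difference averaged over the lines, and for C5ar2, whose counts separated the APOE2 mice from the others. They come from RefSeq (build GRCm38.p6), whose table held 8 entries for 7 of the 10 members, with no entry for Itgb2, Serping1 or Csmd1. Each runs 5′ to 3′ on the gene's strand up to the transcription start, and capitals mark the motifs searched on both strands, GAGGAA (or its reverse TTCCTC), a form of the site of the myeloid factor PU.1, and TGANTCA, the AP-1 site. Of 32851 promoters of 250 bases, 23.3% (7639) held GAGGAA and 6.75% (2217) held TGANTCA, against 3 and 1 of the 8 entries for members. The 3 with GAGGAA were those of Itgam, Cd59a (62 bases before its start) and 1 of those of C5ar2, and C3ar1 held none. The entry for C3ar1 (chr6:122856162-122856407, minus strand, 4 exon bases left off) holds TGACTCA 22 bases before the start.
C3ar1: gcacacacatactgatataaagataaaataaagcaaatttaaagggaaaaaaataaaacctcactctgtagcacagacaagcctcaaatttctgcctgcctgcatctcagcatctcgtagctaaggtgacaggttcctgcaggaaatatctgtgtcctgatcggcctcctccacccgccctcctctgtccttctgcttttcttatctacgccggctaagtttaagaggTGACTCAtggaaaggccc
Itgam, at chr7:128062390-128062639 on the plus strand, holds GAGGAA 84 bases and TTCCTC 15 bases before the start.
Itgam: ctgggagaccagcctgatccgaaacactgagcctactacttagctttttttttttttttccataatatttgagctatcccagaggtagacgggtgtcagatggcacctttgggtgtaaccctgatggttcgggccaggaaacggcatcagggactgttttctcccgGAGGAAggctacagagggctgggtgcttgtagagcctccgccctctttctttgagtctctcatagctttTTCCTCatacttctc
The first of the C5ar2 entries, at chr7:16244155-16244404 on the minus strand and bordering the annotated gene, holds neither motif in this window, while the other, at chr7:16242332-16242581, holds GAGGAA 26 bases before its start and is 1 of the 3 counted above.
C5ar2: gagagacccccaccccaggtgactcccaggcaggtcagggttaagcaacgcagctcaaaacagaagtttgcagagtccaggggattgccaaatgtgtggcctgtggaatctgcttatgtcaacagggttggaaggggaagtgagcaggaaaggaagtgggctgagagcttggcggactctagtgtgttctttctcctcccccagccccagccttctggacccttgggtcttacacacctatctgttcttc
A match describes these letters only, and binding was not measured.

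Serping1, the C1 inhibitor (ENSMUSG00000023224, chr2:84765387-84775444, minus strand), had 7.16, 12 and 10.9 CPM in E2H, 9.56, 11.7 and 9.84 in E3H and 9.60, 7.58 and 9.75 in E4H. It had 16.8, 16.9, 26.0 and 19.8 CPM in PS/E2H, 13.2, 21.2, 22.8 and 37.6 in PS/E3H and 28.8, 17.7, 15.1 and 25.6 in PS/E4H. The PS19 and parental mice did not overlap, and PS/E3H held both the lowest and the highest PS19 mouse. In the order E4H, E2H, E3H, PS/E2H, PS/E4H, PS/E3H only E3H and PS/E2H are neighbours without overlap. Serping1 rose in PS/E3H by 1.19 log2 (SE 0.28, 0.57 to 1.80, 2.27-fold, adjusted p = 0.0356, over the alternatives up to 0.215) and in PS/E4H by 1.27 log2 (SE 0.22, 0.79 to 1.76, 2.42-fold, adjusted p = 0.00475, over the alternatives up to 0.0548). In PS/E2H the difference of 0.99 log2 (SE 0.21, 1.98-fold) did not pass in the edgeR fit of those 7 mice (adjusted p = 0.0769, over the alternatives 0.000188 to 0.245). It passed in DESeq2 (adjusted p = 0.000188) and in edgeR with the replicate number as a block (adjusted p = 0.0428), and was 1.06 log2 (adjusted p = 0.0832) without the mouse whose Ddx3y exceeded Xist. Averaged over the lines it rose by 1.16 log2 (SE 0.16, 0.82 to 1.49, 2.23-fold, adjusted p = 2.62e-05) with 12 of 12 PS19 mice above their line. When the 4 mice whose Ddx3y exceeded Xist were left out this was 1.06 log2 (adjusted p = 0.000463), and 0.93 log2 or 1.90-fold (adjusted p = 0.0262) in PS/E4H, under the 2-fold limit. Its closest genes were Vim (r = 0.957), F13a1 (r = 0.937) and Serpinf1 (r = 0.935), and with group means taken out S100a4 (r = 0.899), Vim (r = 0.883) and Ctsb (r = 0.880), n = 21.

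Csmd1 (ENSMUSG00000060924, chr8:15892537-17535586, minus strand) was the member that fell. It had 32.3, 22.1 and 35.5 CPM in E2H, 41.5, 38.7 and 41.4 in E3H and 42.7, 50.6 and 36.9 in E4H. In PS19 mice it had 24.8, 19.8, 34.6 and 27.5 CPM in PS/E2H, 34.3, 27.9, 32.3 and 32.1 in PS/E3H and 29.0, 23.0, 25.4 and 27.2 in PS/E4H. The E3H and E4H mice lay above all PS19 mice, while the E2H mice overlapped them, in the order PS/E4H, PS/E2H, E2H, PS/E3H, E3H, E4H. Csmd1 fell in PS/E3H by 0.37 log2 (SE 0.08, 95% interval of the change -0.55 to -0.18, 1.29-fold lower, adjusted p = 0.0328, over the alternatives 0.00348 to 0.230) and in PS/E4H by 0.74 log2 (SE 0.11, -0.99 to -0.48, 1.67-fold lower, adjusted p = 0.00307, over the alternatives up to 0.0545). In PS/E2H its difference was -0.17 log2 (adjusted p = 0.845). Averaged over the lines it fell by 0.42 log2 (SE 0.09, -0.61 to -0.23, 1.34-fold lower, adjusted p = 0.00236), with 9 of 12 PS19 mice below every mouse of their line. Without the 4 mice whose Ddx3y exceeded Xist the values were -0.45 log2 averaged (adjusted p = 0.00300) and -0.96 log2 in PS/E4H (adjusted p = 0.0116). Antisense and short genes lie within its long body, and their part in its counts is uncertain. Its closest genes were Ank2 (r = 0.949), Arhgap32 (r = 0.948) and Afdn (r = 0.935), and with group means taken out Xylt1 (r = 0.913), Ank2 (r = 0.906) and Rab11fip2 (r = 0.900), n = 21.

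The remaining inhibitors are Cd55, Cd59a and Cr1l, on cell membranes. Cd55, which speeds the decay of C3 convertases (ENSMUSG00000026399, chr1:130439027-130462744, minus strand), had 199 to 526 counts and 3.23 to 7.95 CPM over the 21 mice, and the groups overlapped. Its averaged tau difference was -0.07 log2 (SE 0.12, -0.31 to 0.18, adjusted p = 0.746). Cd59a (ENSMUSG00000032679, chr2:104095801-104115354, plus strand) had 722 to 1652 counts, and its averaged difference was 0.08 log2 (SE 0.11, -0.15 to 0.32, adjusted p = 0.670), or 0.24 log2 (SE 0.09, adjusted p = 0.0894) without the 4 mice whose Ddx3y exceeded Xist. Cd59a shares 3.87% of its 50-base exon windows with its paralog Cd59b (41 to 129 counts), and Cd55 shares 8% with Cd55b (0 to 7 counts). Neighbouring groups overlapped for these genes and for Cr1l.

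Cr1l, the mouse inhibitor Crry (ENSMUSG00000016481, chr1:195097382-195131586, minus strand), had 808 to 1537 counts, at 17.3 ± 2.12 CPM (SD) in the 9 parental mice and 19.7 ± 1.63 in the 12 PS19 mice. It rose by 0.20 log2 averaged over the lines (SE 0.07, 0.06 to 0.33, 1.15-fold, adjusted p = 0.0381, over the alternatives up to 0.141), with 7 of 12 PS19 mice above every mouse of their line. That call was lost in 14 of the 21 fits that leave out 1 mouse, with adjusted p up to 0.101. Those mice were E2H replicates 2 and 3, E3H replicates 1 and 3, E4H replicates 1, 2 and 3, PS/E2H replicates 1 and 3, PS/E3H replicates 2 and 3 and PS/E4H replicates 1, 2 and 3. Without the 4 mice whose Ddx3y exceeded Xist it was 0.23 log2 and did not pass (adjusted p = 0.0621). Cr1l shares 4.34% of its 50-base exon windows with other genes, among them Crry-ps (12 to 80 counts), so a part of its reads may be divided between them. Its closest genes were Gm15328 (r = 0.839), Ganab (r = 0.824) and G630093K05Rik (r = 0.816), and with group means taken out Kctd21 (r = 0.855), Ganab (r = 0.819) and Rbbp5 (r = 0.815), n = 21. For Cd55 they were Gm13814 (r = 0.771), Gm26621 (r = 0.742) and L3hypdh (r = 0.719), or with group means taken out Gm13814 (r = 0.825), Slain1 (r = 0.8) and Ppp1r42 (r = 0.797). For Cd59a they were Bbox1 (r = 0.813), Serpinb1b (r = 0.788) and Kcnj16 (r = 0.757), or with group means taken out Bbox1 (r = 0.913), Htr4 (r = 0.841) and Cldn34c2 (r = 0.835). As the highest of 22863 genes over 21 mice, these are not shown to be linked to the member.

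**Figure D2:**
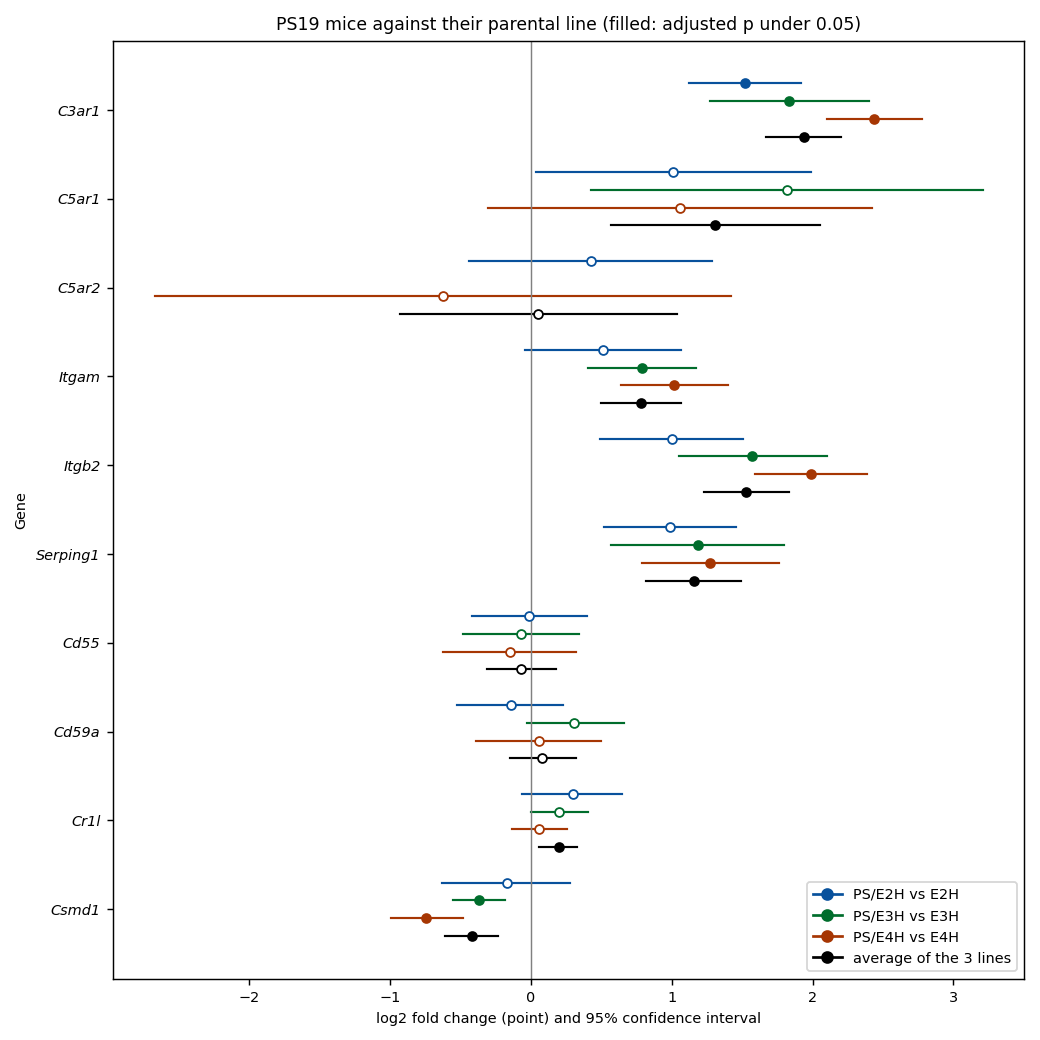
Log2 fold change with its 95% interval for each member for each PS19 group against its own parental line and averaged over the lines (edgeR), filled where the adjusted p passed. C3ar1, Itgb2, Serping1, Itgam, C5ar1 and Cr1l passed above 0 in the average and Csmd1 below 0.

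Counted over the members, 1 of the 10 tested passed in PS/E2H against E2H (C3ar1, higher and at least 2-fold), where 0.752% of 20617 genes tested passed, 0.669% higher, and 0.485% passed at 2-fold or more. At an unadjusted p under 0.05, 4 of the 10 members and 2203 genes passed there. In PS/E3H against E3H, 5 of 9 members tested passed, 4 higher and 1 lower, and 3 at 2-fold or more, where 5.37% of 21251 genes passed, 3.35% higher, and 1.32% at 2-fold or more. In PS/E4H against E4H, 5 of 10 passed, 4 higher and 1 lower, and 4 at 2-fold or more, where 15.6% of 20844 genes passed, 8.62% higher, and 2.98% at 2-fold or more. Averaged over the lines, 7 of 10 passed, 6 higher and 1 lower, and 4 at 2-fold or more, where 21.8% of 22863 genes passed, 11.9% higher, and 2.82% at 2-fold or more. The members' median difference was 0.47, 0.79, 0.54 and 0.49 log2 in these 4 comparisons, where the median of all genes was -0.02, 0.00, 0.00 and 0.00. The average uses the same mice as the 3 single comparisons, so it is not independent of them.

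The PS/E3H count depends on single mice, as does the share of all genes that passed there. The count was 1 without E3H replicate 1, 2 without E3H replicate 2 and 1 without E3H replicate 3. Leaving out PS/E3H mice gave 7 without replicate 1, 3 without replicate 2 and 2 without replicate 3 or replicate 4. Of all genes, 0.522%, 1.18% and 0.957% passed without E3H replicates 1, 2 and 3, and 12.4%, 3.42%, 3.52% and 1.92% without PS/E3H replicates 1 to 4, against 5.37% with all mice. C3ar1 passed in all 7 of these fits (adjusted p at most 0.0442), Itgb2 missed without E3H replicate 1 (0.0512) and without E3H replicate 3 (0.0556), and Itgam, Serping1 and Csmd1 were lost in 5, 6 and 6 of the 7. Without PS/E3H replicate 1, C5ar1 (2.15 log2, adjusted p = 0.0186) and Cd59a (0.44 log2, adjusted p = 0.0299) also passed. In PS/E2H and PS/E4H against their lines the count of members stayed the same, but the share of all genes moved. For PS/E2H it ran from 0.146% (without E2H replicate 1) to 0.695% (without PS/E2H replicate 4), against 0.752% with all mice. For PS/E4H it ran from 5.54% (without E4H replicate 2) to 16.5% (without PS/E4H replicate 3), against 15.6% with all mice.

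Whether the tau difference itself depends on the APOE line was tested as an interaction in the fit of 21 mice, and 0 of the 10 members passed in edgeR for APOE2 minus APOE3, APOE4 minus APOE3 or APOE4 minus APOE2. Among all genes the share was 0%, 0% and 0%. At an unadjusted p under 0.05 there were 0, 0 and 3 members, and 1555, 682 and 2610 of 22863 genes. DESeq2 and limma on log2 FPKM also gave 0 members in each, where DESeq2 passed 11, 11 and 210 genes. The 3 members, all for APOE4 minus APOE2, were C3ar1 with 0.92 log2 (SE 0.30, 95% interval 0.30 to 1.54, adjusted p = 0.276), Itgb2 with 0.98 log2 (SE 0.34, 0.27 to 1.70, adjusted p = 0.286) and Csmd1 with -0.56 log2 (SE 0.23, adjusted p = 0.347). Leaving out the mice whose Ddx3y exceeded Xist gave 0.74 log2 for C3ar1 (adjusted p = 0.424) and 0.70 for Itgb2 (adjusted p = 0.492), both then over 0.05 unadjusted, and -0.90 for Csmd1 (adjusted p = 0.230). For APOE4 minus APOE3 C3ar1 had 0.59 log2 with an interval of -0.02 to 1.21 (adjusted p = 1). So a tau difference that passed in 1 line and not in another was not shown to differ between those lines, and intervals of this width do not show that the lines are alike.

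APOE lines were compared with tau genotype held fixed, and in edgeR 0 of the members tested passed in each of the 6 comparisons. Among the PS19 groups age at paralysis was not held fixed and may go with APOE line. Of all genes tested, 0.178% passed in E2H against E3H, 0.162% in E4H against E3H and 0.216% in E4H against E2H. Among the PS19 groups it was 0.113% in PS/E2H against PS/E3H, 0.0197% in PS/E4H against PS/E3H and 0.119% in PS/E4H against PS/E2H. At an unadjusted p under 0.05 there were 4, 1, 5, 1, 1 and 2 members in these 6 comparisons in the same order, and 2933, 1397, 2570, 2383, 1324 and 2491 of all genes. By DESeq2 1, 0, 0, 1, 0 and 2 members passed, and 598, 134, 288, 148, 45 and 226 of all genes. C5ar2, whose limit is given below, was the 1 in PS/E2H against PS/E3H and 1 of the 2 in PS/E4H against PS/E2H. By limma on log2(FPKM + 1) 0 members passed in each, and 42, 29, 42, 17, 3 and 15 of all genes.

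C5ar2 stood apart by APOE line. Between APOE lines it passed the filter on low counts in the 4 comparisons that include an APOE2 group, where it is high, and failed it in the 2 between APOE3 and APOE4. It was thus selected for these tests by the group in which it is high, and its p values are to be read with that in mind. E2H exceeded E3H by 2.67 log2 (SE 0.88, 95% interval 0.69 to 4.65, 6.35-fold, adjusted p = 0.263), and PS/E2H exceeded PS/E3H by 2.76 log2 (SE 0.46, 1.74 to 3.78, 6.76-fold, adjusted p = 0.0670). E4H differed from E2H by -1.98 log2 (SE 0.50, adjusted p = 0.340) and PS/E4H from PS/E2H by -3.04 log2 (SE 0.69, adjusted p = 0.214). By DESeq2 C5ar2 passed in PS/E2H against PS/E3H (adjusted p = 0.000165, over the alternatives up to 0.372) and in PS/E4H against PS/E2H (adjusted p = 0.00194, over the alternatives up to 0.520). These passes are to be read with the same limit, and no conclusion is drawn from them. Averaged over parental and PS19 mice, C5ar2 was higher with APOE2 than with APOE3 by 2.71 log2 (SE 0.58, 6.55-fold) and lower with APOE4 than with APOE2 by 2.51 log2 (SE 0.57, 5.71-fold), and APOE4 against APOE3 gave 0.20 log2 (SE 0.58). This average was added after its values by APOE line had been seen, so these are descriptions without a test. Of all genes, 3.88%, 0.695% and 0.131% passed in these averages for APOE2 against APOE3, APOE4 against APOE2 and APOE4 against APOE3, and 0.504%, 0.390% and 0.123% without the mice whose Ddx3y exceeded Xist. For C5ar2 the averages without those mice were as follows: APOE2 against APOE3 gave 2.73 log2 (SE 0.53) and APOE4 against APOE2 -2.56 log2 (SE 0.65). Without the mice whose Ddx3y exceeded Xist, PS/E2H against PS/E3H gave 2.79 log2 (adjusted p = 0.191) and PS/E4H against PS/E2H -2.90 log2 (adjusted p = 0.520).

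**Figure D3:**
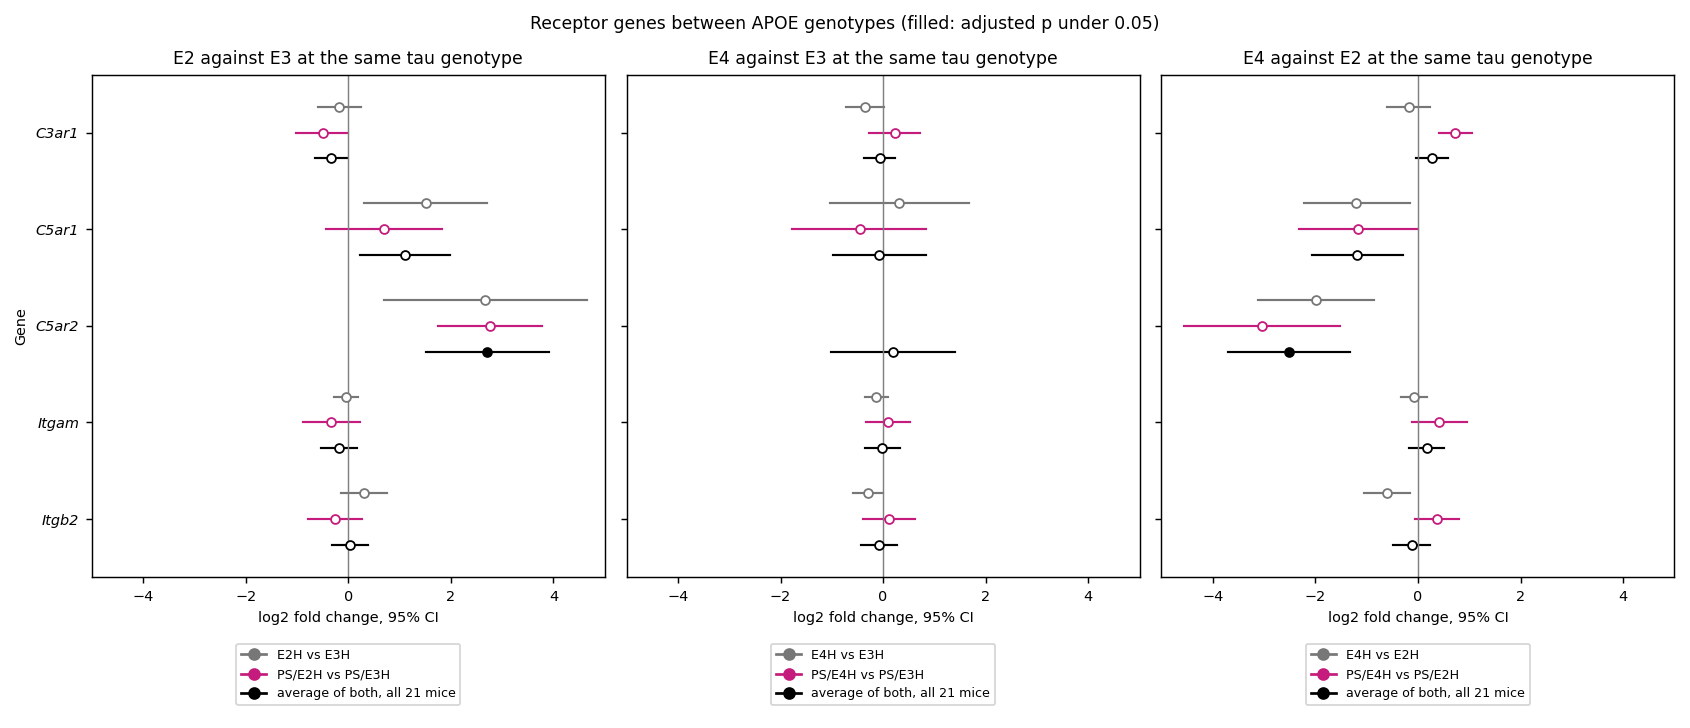
Log2 fold change with its 95% interval for the 5 receptor genes between APOE lines, in parental mice, in PS19 mice and averaged over both (edgeR), filled where the adjusted p passed. C5ar2 had 2.67 in E2H against E3H and 2.76 in PS/E2H against PS/E3H, and its averages were 2.71 and -2.51. The averages were added after values were seen and C5ar2 entered through the APOE2 mice, so the fill of its averages is not to be read as a test.

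The bodies of C5ar2 and C5ar1 lie 2.6 kb from each other, and their starts lie 3.46 Mb and 3.44 Mb from the start of Apoe (ENSMUSG00000002985, chr7:19696109-19699188, minus strand), the locus replaced in these lines. Itgam, on the same chromosome, starts 108.36 Mb away. Among all genes within 5 Mb of Apoe, a window chosen after values were seen, 2 of 124 passed in E2H against E3H (1.61%, elsewhere 0.169%) and 1 of 121 in PS/E2H against PS/E3H (0.826%, elsewhere 0.109%). In E4H against E2H and in PS/E4H against PS/E2H it was 3 of 122 (2.46%), against 0.203% and 0.105% elsewhere. The counts were 0 of 119 in E4H against E3H and 0 of 120 in PS/E4H against PS/E3H. What the distance to Apoe has to do with C5ar2 was not tested. C5ar1 had 1.51 log2 in E2H against E3H (SE 0.53, adjusted p = 0.279), 0.69 in PS/E2H against PS/E3H (adjusted p = 0.573) and -1.16 in PS/E4H against PS/E2H (adjusted p = 0.408). Its average for APOE2 against APOE3 was 1.11 log2 (SE 0.42), a description without a test like that of C5ar2. The log2 CPM of C5ar1 and C5ar2 had r = 0.49 over n = 21 mice and 0.08 with group means taken out. C5ar2 overlaps Gm26473 on the same strand (0 to 4 counts) and shares 4.39% of its 50-base exon windows with other genes, so a part of its low count is uncertain.

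Of the other members, C3ar1 was higher in PS/E4H than in PS/E2H by 0.73 log2 (SE 0.15) with no overlap between the 4 and 4 mice, which did not pass in edgeR (adjusted p = 0.158) and passed in DESeq2 (adjusted p = 0.00144, over the alternatives up to 0.777). Without the mice whose Ddx3y exceeded Xist it was 0.52 log2 (adjusted p = 0.777). Cd59a had 21.5, 21.8 and 19.4 CPM in E2H and 14.2, 17.1 and 15.1 in E3H, groups that did not overlap. The difference of 0.43 log2 (SE 0.11) did not pass in edgeR (adjusted p = 0.224) and passed in DESeq2 (adjusted p = 0.0432, over the alternatives up to 0.425). In PS/E2H against PS/E3H it was -0.07 to 0.08 log2 over the alternatives. How many of all genes separate groups this small without overlap was not counted. Csmd1 differed by -0.44 log2 in E2H against E3H (adjusted p = 0.289) and by 0.54 log2 in E4H against E2H (adjusted p = 0.363). Itgb2 differed by -0.60 log2 in E4H against E2H (adjusted p = 0.363). These 6 comparisons share groups with each other and with the tau comparisons.

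Genes of other lists were measured beside the members in the tau difference averaged over the lines, where the median of all genes was 0.00 log2. Of 26 complement components 19 were tested, 11 were higher and 1 lower, and their median was 0.54 log2. C1qa, the most abundant at a mean of 100.2 FPKM, rose by 1.85 log2 (SE 0.09, adjusted p = 1.42e-11), C1qb by 1.59 (SE 0.09, adjusted p = 2.20e-10) and C1qc by 1.60 (SE 0.10, adjusted p = 6.16e-10). The list's summed FPKM was 105 to 153 in parental and 245 to 593 in PS19 mice. Of 24 other complement receptors and regulators 21 were tested, 5 were higher and 4 lower, with a median of -0.02 log2. Itgax, the alpha subunit of complement receptor 4, rose by 4.35 log2 (SE 0.21, adjusted p = 2.41e-11), and Clu, the most abundant at 334 FPKM, by 0.75 (SE 0.05, adjusted p = 5.15e-09), and Vtn (0.31 log2) and Thbd (0.37 log2) were also higher. The 4 lower genes, named after their values were seen, were Csmd2, a paralog of Csmd1, at -0.45 log2 (adjusted p = 0.00119), Sez6 at -0.27, Sez6l at -0.21 and Susd4 at -0.20 log2. The summed FPKM of all 24 genes of this list was 555 to 619.6 in parental and 642 to 794 in PS19 mice.

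C3ar1, Itgam and Itgb2 are carried in brain mostly by microglia, whose own markers also moved. Of 12 markers of homeostatic microglia, 8 were higher and 0 lower (median 0.43 log2). Csf1r rose by 0.81 log2 (SE 0.07, adjusted p = 3.03e-08) and Fcrls by 1.33 (SE 0.17, adjusted p = 8.63e-06). The summed FPKM of that list was 142 to 170.3 in parental mice and 153 to 332 in PS19 mice, with group means of 152, 155 and 144 in E2H, E3H and E4H and 228, 261 and 299 in PS/E2H, PS/E3H and PS/E4H. Of 12 markers of activated microglia 12 were higher (median 1.65 log2), among them Itgax, Cst7 (5.01 log2), Clec7a (4.53 log2) and the most abundant, Ctss (123 FPKM, 1.52 log2), and their sum was 109.8 to 165 in parental and 244 to 555 in PS19 mice. In bulk RNA more cells of a type and more RNA per cell cannot be told apart, nor can fewer cells of a type and less RNA per cell.

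Per 100 FPKM of the homeostatic microglia list, Itgam had 2.62, 2.81 and 2.70 FPKM in E2H, E3H and E4H and 2.49, 2.82 and 2.61 in PS/E2H, PS/E3H and PS/E4H, so its group means lay close together. On the same scale C3ar1 had 0.407, 0.478 and 0.390 and then 0.807, 0.978 and 1.01, and the highest parental mouse (0.529) lay below the lowest PS19 mouse (0.658). Itgb2 had 1.90, 1.58 and 1.35 and then 2.59, 2.69 and 2.56, and Serping1 had 2.51, 2.74 and 2.49 and then 3.54, 3.55 and 2.85. This ratio is a description with no test, and part of the list itself rose.

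**Figure D4:**
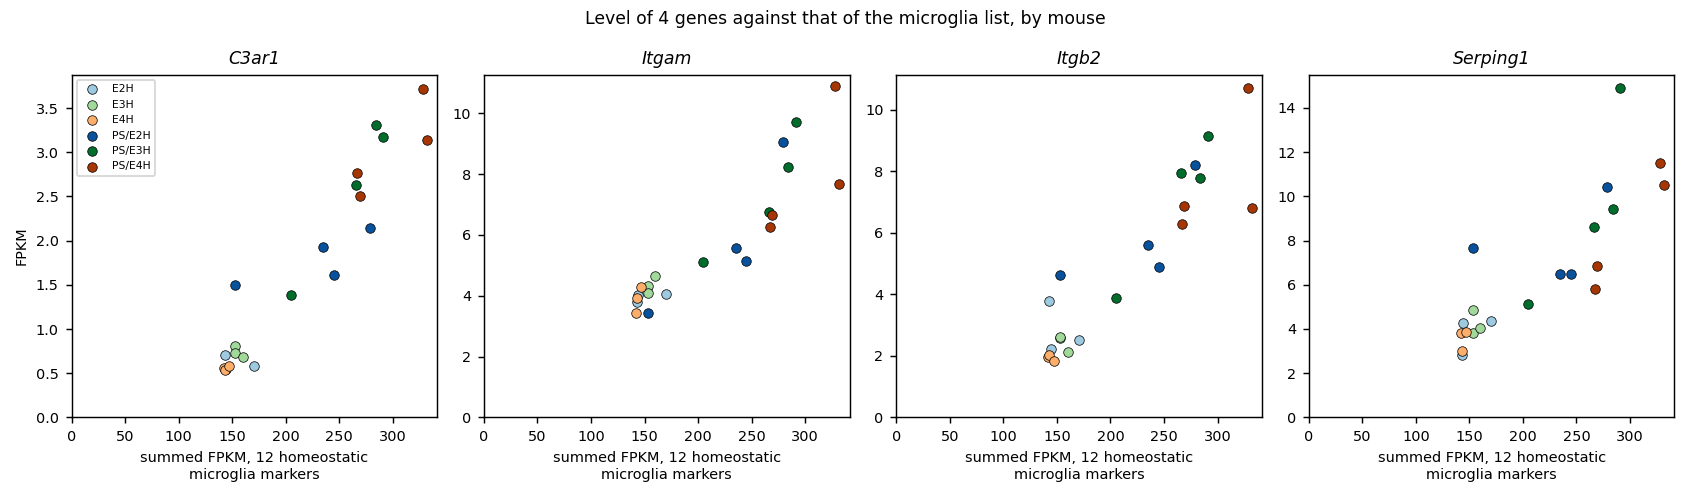
FPKM of C3ar1, Itgam, Itgb2 and Serping1 against the summed FPKM of 12 homeostatic microglia markers, 1 point per mouse. The sum was 142 to 170.3 in parental mice and 153 to 332 in PS19 mice.

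Blood and border cells also carry these receptors. Of 10 neutrophil markers 8 were tested and 3 were higher (median 2.89 log2), among them S100a8 (3.11 log2, adjusted p = 0.0225), which missed without PS/E3H replicate 4 (2.29 log2, adjusted p = 0.0673), and Ngp (2.94 log2, adjusted p = 0.0229), which missed without that mouse (1.85 log2, adjusted p = 0.0943) and without PS/E4H replicate 1 (2.22 log2). The most abundant, S100a9 (2.93 FPKM), did not pass (adjusted p = 0.0548). The summed FPKM of neutrophil markers was 47.2 in PS/E3H replicate 4, 26.4 in PS/E4H replicate 1 and 14 in E2H replicate 1, and 0.256 to 9.77 in the other mice. In those 3 mice Itgb2 and Itgam were highest of their group or, for Itgam in E2H replicate 1, lowest, and the part of neutrophils in these values was not tested. Of 6 monocyte markers 2 were higher (median 1.08 log2; most abundant Ly6c2, 0.359 FPKM), with sums of 0.172 to 1 in parental and 0.0874 to 3.72 in PS19 mice. Of 7 border macrophage markers 6 were higher (median 1.29 log2), with F13a1 at 1.45, Mrc1 at 1.29, Ms4a7 at 1.91 and the most abundant, Cbr2, at 0.93 log2, and sums of 2.06 to 4.12 in parental and 4.68 to 9.09 in PS19 mice. Of 8 markers of T and NK cells 1 was higher (median 1.37 log2; most abundant Trbc2), of 5 of B cells 0 (median 1.06 log2; most abundant Ighm) and of 6 of red cells 0 (median -0.91 log2; most abundant Hbb-bs) in edgeR. Their sums in parental and PS19 mice were 8.16 to 16.6 and 8.64 to 17.4, 8.31 to 17.0 and 3.63 to 29.3, and 235 to 951 and 34.2 to 464 FPKM.

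Among other brain cells, 8 of 8 astrocyte markers were higher (median 0.42 log2), with Gfap at 2.69, Aldh1l1 at 0.50, S100b at 0.39 and the most abundant, Aldoc, at 0.45 log2, and sums of 565 to 707 FPKM in parental and 864 to 1332 in PS19 mice. Of 8 oligodendrocyte markers 5 were higher (median 0.29 log2), with Cldn11 at 0.55, Mbp, the most abundant, at 0.40 and Mobp at 0.29 log2, and sums of 757 to 1026 and 873 to 1396 FPKM. Csmd1 is a neuronal gene, and of 8 neuronal markers 3 were lower and 2 higher (median -0.09 log2), with the most abundant, Snap25, at -0.20, Gad1 at 0.20 and Gad2 at 0.26 log2, and sums of 1040.3 to 1133 and 931 to 1098 FPKM. Of 7 endothelial markers 3 were higher (median 0.09 log2), with Ly6c1, the most abundant, at 0.40, Slco1a4 at 0.22 and Pecam1 at 0.27 log2, and sums of 42.5 to 54.9 and 40.8 to 60.3 FPKM. Of 6 mural markers 1, Tagln (0.38 log2), was higher (median 0.01 log2; most abundant Rgs5), with sums of 27.9 to 49.3 and 33.7 to 46.8 FPKM. Of 8 markers of meningeal and perivascular fibroblasts 5 were higher (median 0.63 log2), with Igf2, the most abundant, at 0.71, Col1a2 at 0.88 and Slc6a13 at 0.56 log2, and sums of 13.2 to 31.0 and 27.5 to 48.5 FPKM. The part of these cells in the members' values was not tested.

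Markers of tissue near the forebrain were read to check the dissection. Of 7 choroid plexus markers 2 were higher, Aqp1 (0.55 log2) and Clic6 (0.47 log2), with a median of 0.41 log2, Ttr as the most abundant (464 FPKM) and sums of 322 to 561 FPKM in parental and 289.5 to 881 in PS19 mice. Of 6 pituitary markers 4 were tested and 1, Prl, was lower (adjusted p = 0.00719; median -3.49 log2; most abundant Pomc), Lhb was at 0 counts in all 21 mice, and sums were 0.787 to 7.5 and 0.519 to 3.46 FPKM. Of 7 forebrain markers 5 were lower and 0 higher (median -0.37 log2), with Neurod6, the most abundant, at -0.69 and Tbr1 at -0.35 log2, and sums of 70.7 to 94.9 and 49.6 to 73.4 FPKM. Of 7 markers of hindbrain and spinal cord 5 were tested and 1 was higher (median 0.62 log2; most abundant En2, 0.449 FPKM), with sums of 0.264 to 1.62 and 0.418 to 3.54 FPKM. Summed forebrain markers were at least 49.6 FPKM in every mouse, above the highest hindbrain and spinal cord sum of 3.54 FPKM. These lists hold different genes, so their sums cannot show whether the dissection was alike in PS19 and parental mice. Of the forebrain markers 5 were lower in PS19 mice, and whether the tissue taken differed between groups was not tested.

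**Figure D5:**
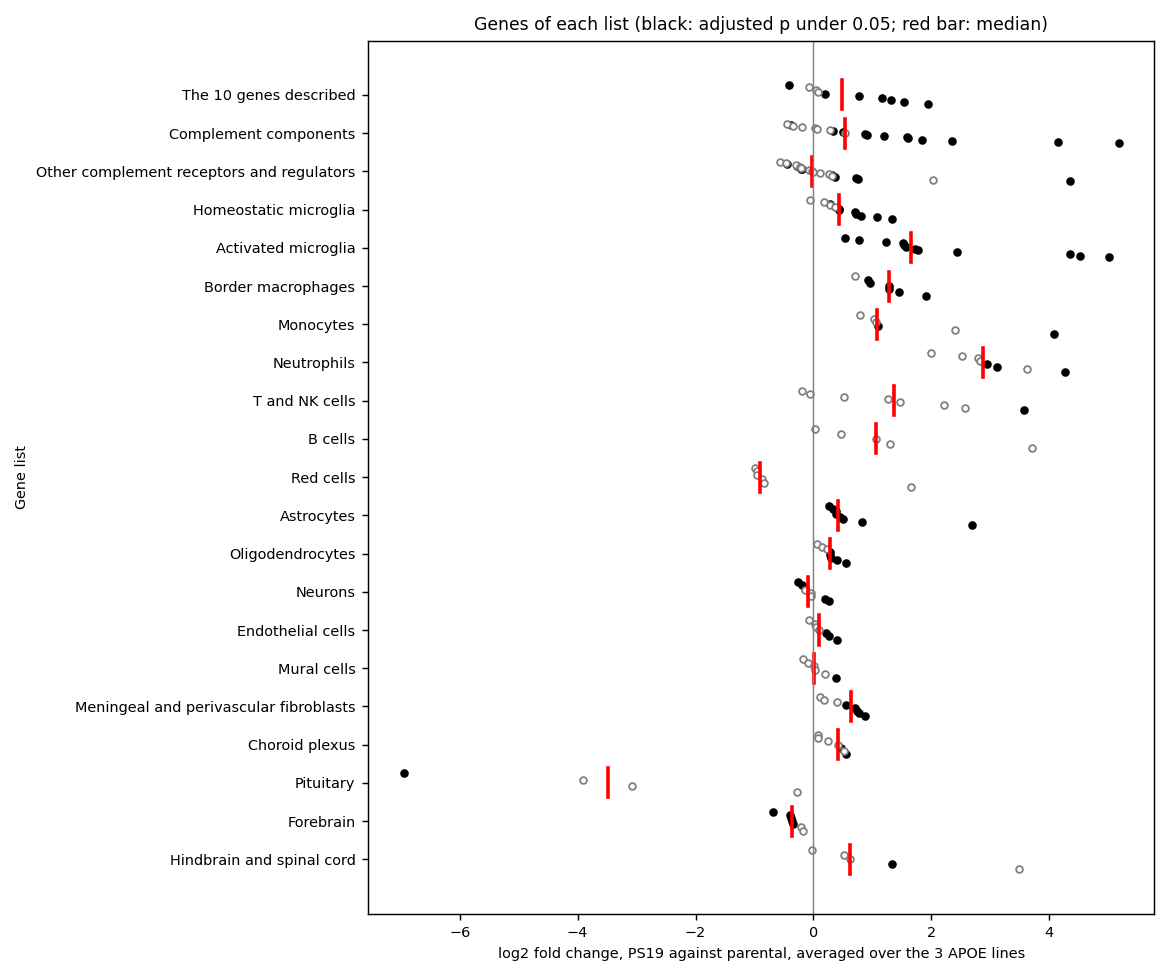
Log2 fold change of each list's genes in the tau difference averaged over the lines (black where the adjusted p passed), with a red bar at the median. The 10 members have a median of 0.49 log2, between homeostatic microglia at 0.43 and complement components at 0.54.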

How the data were processed

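The authors trimmed reads with Cutadapt, aligned them with HISAT2 (GRCm38.p5) and assembled them with StringTie, as the submitters' notes say. The authors deposited a count per gene without normalization, and how the count was taken from StringTie's output is not stated. The deposited FPKM values were made by the authors with StringTie, already scaled for length and library size. Members and lists were chosen with earlier results of these data known.

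Tests used edgeR 4.0.16 (TMM, filterByExpr with minimum count 10 and total 15, quasi-likelihood F test) in R 4.3.3, with Benjamini-Hochberg adjustment over all genes tested. A gene passed at an adjusted p under 0.05 and was called at 2-fold or more besides, and the interactions had no fold limit. Single comparisons used their own mice, while averages and interactions used 1 fit of 6 group means. Alternatives used DESeq2 1.42.0, RLE factors, limma 3.58.1 on log2 FPKM with 2 pseudocounts, no filter, a replicate block, 1 fit of 21 mice, a term for the Xist pattern, and single mice left out. The steps were tested on simulated data. Python 3.11.15, NumPy 2.4.6, pandas 2.3.3 and matplotlib 3.10.9 were also used. GENCODE M21 names 55141 of the 55401 IDs.

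Named are the 10 members, Apoe and, for each member, the 3 genes with the highest correlation, with and without group means. Named from each list, by the averaged tau difference, are up to 3 genes with the smallest adjusted p, the most abundant and those that passed against the list's median; not all of them are printed.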

Additional observations from a re-analysis of the deposited data

Results flagged for a closer look

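Itgb2 had 35.2 CPM in PS/E4H replicate 1, far from the other 3 mice of the group at 23.2, 21.4 and 21.8 CPM: its gap to the next mouse was a large part of the group's range by Dixon's test. This was 1 of 30 groups of 4 mice examined (10 members in 3 PS19 groups), and chance gives about 1 in 20. That mouse is also one of the 4 whose Ddx3y count exceeded Xist, but PS/E4H replicate 4, which shares that pattern, had 21.8 CPM. Replicate 1 also had the highest Itgam (58.9 CPM), Serping1 (28.8 CPM) and C3ar1 (17.2 CPM) of its group. Its summed neutrophil markers (26.4 FPKM) were the highest of the group as well, and what set this mouse apart was not tested. Without the mice whose Ddx3y exceeded Xist, Itgb2 was higher in PS/E4H than in E4H by 1.77 log2 (adjusted p = 0.00239, edgeR), against 1.99 log2 with them.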

How the results depend on the processing

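The count of members that passed in PS/E2H against E2H was 1, where 155 of 20617 genes passed. It was 3 in DESeq2 (641 of 18790 genes), 0 in limma on log2(FPKM + 1) without a filter (30 of 33023), and 2 each with a replicate block (246 of 20617), in 1 fit of all 21 mice (557 of 22863) and with a term for the Xist pattern (463 of 22863). In PS/E3H against E3H it was 5 (1141 of 21251 genes). It was 6 in DESeq2 (2326 of 17917), 4 with a replicate block (529 of 21251), 2 with no filter on low counts (554 of 33735) and 2 in limma on log2(FPKM + 1) and on log2(FPKM + 0.1) (657 and 751 of 20784), 0 in limma without a filter (5 of 33734), and 3 in 1 fit of all 21 mice and with a term for the Xist pattern (1093 and 1035 of 22863). In PS/E4H against E4H it was 5 (3252 of 20844), and 3 in limma without a filter (1474 of 33471). The cause of these differences was not tested.

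Between APOE lines the main count was 0. DESeq2 gave 1 in E2H against E3H, 1 in PS/E2H against PS/E3H and 2 in PS/E4H against PS/E2H. C5ar2 was the 1 in PS/E2H against PS/E3H and 1 of the 2 in PS/E4H against PS/E2H. Those passes carry the limit given with its values, so no conclusion is drawn from them. The average over parental and PS19 mice, chosen after seeing the data, gave 1 for APOE2 against APOE3 and 1 for APOE4 against APOE2 (C5ar2, described in the text without a test, since its values by APOE line had been seen). Without the mice whose Ddx3y exceeded Xist that average gave 1 for APOE2 against APOE3 and 0 for APOE4 against APOE2. With no fold limit the members called numbered 5 in place of 3 in PS/E3H against E3H, 5 in place of 4 in PS/E4H against E4H and 7 in place of 4 in the averaged tau difference. That averaged count was 5 to 7 over the alternatives.

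With 1 mouse left out (84 fits), the count was 1 to 1 in PS/E2H against E2H, 1 to 7 in PS/E3H against E3H, 5 to 5 in PS/E4H against E4H, 6 to 7 for the averaged tau difference and 0 to 0 in the other comparisons. The low value of 1 came without E3H replicate 1 or 3 and the value of 7 without PS/E3H replicate 1, where the share of all genes that passed was 0.522%, 0.957% and 12.4%.

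Over members and named genes, 0 values that passed before or after a change had the opposite sign. Values that did not pass could change sign, such as Serping1 in PS/E4H against PS/E2H, at 0.13 log2 and at -0.35 without the mice whose Ddx3y exceeded Xist. Passing was lost and gained by 0 and 0 of 185 with RLE factors, 1 and 8 of 179 in DESeq2, 7 and 1 of 175 in limma at either pseudocount, 21 and 0 of 185 in limma without a filter, 9 and 0 of 185 with no filter on low counts, 0 and 1 of 29 in the APOE averages without the mice whose Ddx3y exceeded Xist, 2 and 1 of 87 in 1 fit of 21 mice, 8 and 2 of 185 with the replicate block, 5 and 1 of 185 with the Xist term, and 9 and 0 of 165 without the mice whose Ddx3y exceeded Xist. The 1 gained in the APOE averages was C5ar2, which carries the limit given with its values and is not read as a test. Depth limits C5ar1 and C5ar2, at 0 to 173 counts a mouse.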
